A study of Homo sapiens with 29 samples.

Results

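The ERBB receptors EGFR, ERBB2 and ERBB3 and 5 genes known to restrain them (ERRFI1, LRIG1, LRIG3, CBL and SOCS5) were followed as RNA in PC9, a human line of lung adenocarcinoma whose EGFR is mutant. The 8 genes were chosen by name, all 8 were found, and they are 8 of 35579 genes in the table after transcripts were summed per gene. Bulk RNA of 10 PC9 lines was measured in 29 libraries, 10 untreated, 10 with erlotinib (E) and 9 with erlotinib and AF154 (EA), with 1 library per line and treatment. Erlotinib inhibits the EGFR kinase, AF154 is an antibody that activates the receptor AXL, and treatment lasted 24 h on dishes seeded with 300000 cells. The lines were the parental line (PAR), which keeps its own AXL, a CRISPR knockout of AXL made from it (KO), and KO cells carrying a lentiviral AXL that was wild type (WT), kinase dead (KD) or changed from Y to F at 1 tyrosine (Y634F, Y643F, Y698F, Y726F, Y750F or Y821F). The 8 transduced lines are sorted populations that still hold KO cells. By the study's supplement, only a minority of the transduced cells express AXL. Of the 10 lines, 9 share the knockout and differ from PAR by it. KO with EA was not analysed here.

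ERBB receptors are tyrosine kinases that signal as dimers. EGFR binds EGF-family ligands, ERBB2 has no known ligand and serves as a dimer partner, and ERBB3 has little kinase activity of its own, binds neuregulins and docks PI3K. Their signal is held back at several points. ERRFI1 (MIG6) binds and blocks the active kinase domain, LRIG1 and LRIG3 are membrane proteins with leucine-rich repeats that act on receptor levels, CBL is a ubiquitin ligase that marks activated EGFR for degradation, and SOCS5 is a suppressor of cytokine signalling that also acts on EGFR. EGFR inhibitors are known to lower feedback genes that ERK drives and to raise ERBB3 in several cancer types.

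Values are TPM, the share of a library's transcripts after scaling for length, set to a fixed total. Levels can thus be set side by side between genes. TPM keeps no read number, so the depth of each library and the counting error of each value are unknown. The 10 lines served as replicates of a treatment, so that p-values measure the spread between these lines and not between cultures of 1 line. Changes are differences of log2(TPM + 1) within a line, tested with limma, in which each line formed a block, and adjusted over all genes tested (Benjamini-Hochberg). This scale understates the change of low genes. Differences between lines rest on 1 library each and are given with no test. In bulk RNA, fewer cells with a transcript and less of it per cell cannot be told apart.

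AXL was lowest in KO, where 92.4 TPM remained without treatment and 79.3 TPM under E, against at least 217 TPM in the other untreated lines and at least 245 TPM in the others with E. Of 10 epithelial and lung adenocarcinoma markers, 7 had means of at least 10 TPM, with KRT7 at 5058 TPM and EPCAM at 342 TPM, while NKX2-1, a lung lineage factor, had a mean of 0.051 TPM. Their sum ranged from 8165 to 9250 TPM untreated, from 10271 to 11218 TPM with E and from 9985 to 10816 TPM with EA. Of 10 markers of immune, endothelial and mesenchymal cells, CD68 and COL1A1 had means of at least 10 TPM, at 42.1 and 42.6 TPM, 5 stayed under 1 TPM in every library, and CD3E was at 0. The sum of these 10 was 67.7 to 102 TPM untreated, 84.3 to 98.5 TPM with E and 78.9 to 111 TPM with EA. The part of either list in the results was not tested. No pair of libraries held identical values.

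The 3 receptors differed in level by several fold before treatment, and EGFR was the highest of them in every library. ERBB4, the remaining receptor of the family, was at most 0.191 TPM in any library. EGFR (ENSG00000146648) lies on chromosome 7 from 55019021 to 55211628, ERBB2 (ENSG00000141736) on chromosome 17 from 39687914 to 39730426 and ERBB3 (ENSG00000065361) on chromosome 12 from 56076799 to 56103505, all on the plus strand (GENCODE release 29, GRCh38). ERRFI1 (ENSG00000116285) lies on the minus strand of chromosome 1 from 8004404 to 8026308, LRIG1 (ENSG00000144749) on the minus strand of chromosome 3 from 66378797 to 66501263 and LRIG3 (ENSG00000139263) on the minus strand of chromosome 12 from 58872149 to 58920522. CBL (ENSG00000110395) lies on chromosome 11 from 119206276 to 119313926 and SOCS5 (ENSG00000171150) on chromosome 2 from 46698952 to 46780245, both on the plus strand. RefSeq promoter windows (GRCh38.p14) of 250 bases were matched for 5 of the 8, EGFR, ERBB2, ERRFI1, LRIG1 and LRIG3. The promoters of EGFR and ERRFI1, which fell together with E, and the parts of the ERBB2 and LRIG1 windows that lie before the GENCODE start, of genes that rose, are printed 5′ to 3′ along the gene's strand. Capitals mark matches on either strand to GGGCGG (the core of SP and KLF sites) or TGANTCA (AP-1).
EGFR, chr7:55018767-55019016, plus strand: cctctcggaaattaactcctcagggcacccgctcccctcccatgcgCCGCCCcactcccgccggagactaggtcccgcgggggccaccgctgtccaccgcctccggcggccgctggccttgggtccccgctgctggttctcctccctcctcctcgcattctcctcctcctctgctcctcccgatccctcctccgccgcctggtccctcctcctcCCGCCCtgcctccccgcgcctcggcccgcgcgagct
ERRFI1, chr1:8026310-8026559, minus strand: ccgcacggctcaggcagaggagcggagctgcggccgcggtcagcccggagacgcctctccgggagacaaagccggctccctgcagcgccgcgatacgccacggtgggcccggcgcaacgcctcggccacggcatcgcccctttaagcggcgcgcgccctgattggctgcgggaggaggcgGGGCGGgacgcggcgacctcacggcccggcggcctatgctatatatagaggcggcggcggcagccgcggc
ERBB2, chr17:39687844-39687913, plus strand: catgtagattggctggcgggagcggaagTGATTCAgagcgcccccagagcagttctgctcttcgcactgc
LRIG1, chr3:66501264-66501371, minus strand: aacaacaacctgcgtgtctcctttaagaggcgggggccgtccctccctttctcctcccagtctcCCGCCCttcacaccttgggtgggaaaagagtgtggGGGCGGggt

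GGGCGG was found 2 times in the EGFR window, 1 time in ERRFI1, 3 times in LRIG1 and 1 time in LRIG3. Of the 3 in LRIG1, 2 lie in the printed stretch. GGGCGG is in 42.6% of 35116 RefSeq windows of this length. TGANTCA was found 1 time in ERBB2 and is in 6.57% of windows. CCGGAAG (ETS) was found 2 times in ERBB2, both past the printed stretch, and is in 8.52% of windows, and CACGTG (E-box) was found 1 time in LRIG3 and is in 6.34%. GTAAACA (forkhead, in 2.98% of windows) and GGAATG (TEAD, in 11.9%) were in none of the 5. The EGFR and ERRFI1 windows were 73.6% and 75.2% G and C, against a median of 58.0% over all windows. These matches describe letters only.

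With E, ERBB3 and ERBB2 rose and EGFR and ERRFI1 fell in 10 of 10 lines, so that the receptors moved in opposite directions. This comparison asked how blocking the EGFR kinase changed its own receptor family and brakes. Most of the transcriptome moved as well: 79% of the 9085 genes averaging 10 TPM or more passed an adjusted p of 0.05, 36.4% higher and 42.6% lower with E. Of the 8 genes, 5 passed this filter on low values and 4 of these 5 passed the test, a share that is near the background. For all 4, the untreated and E libraries did not overlap, which held for 36.5% of the genes tested. LRIG1, LRIG3 and CBL had means of 6.28, 3.09 and 9.22 TPM, under the filter, and were tested among the 14111 genes averaging 1 TPM or more. All 3 passed there, where 71.8% of genes passed, 35.5% higher and 36.3% lower, and none of the 3 was free of overlap, against 29.9% of genes.

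**Figure D1:**
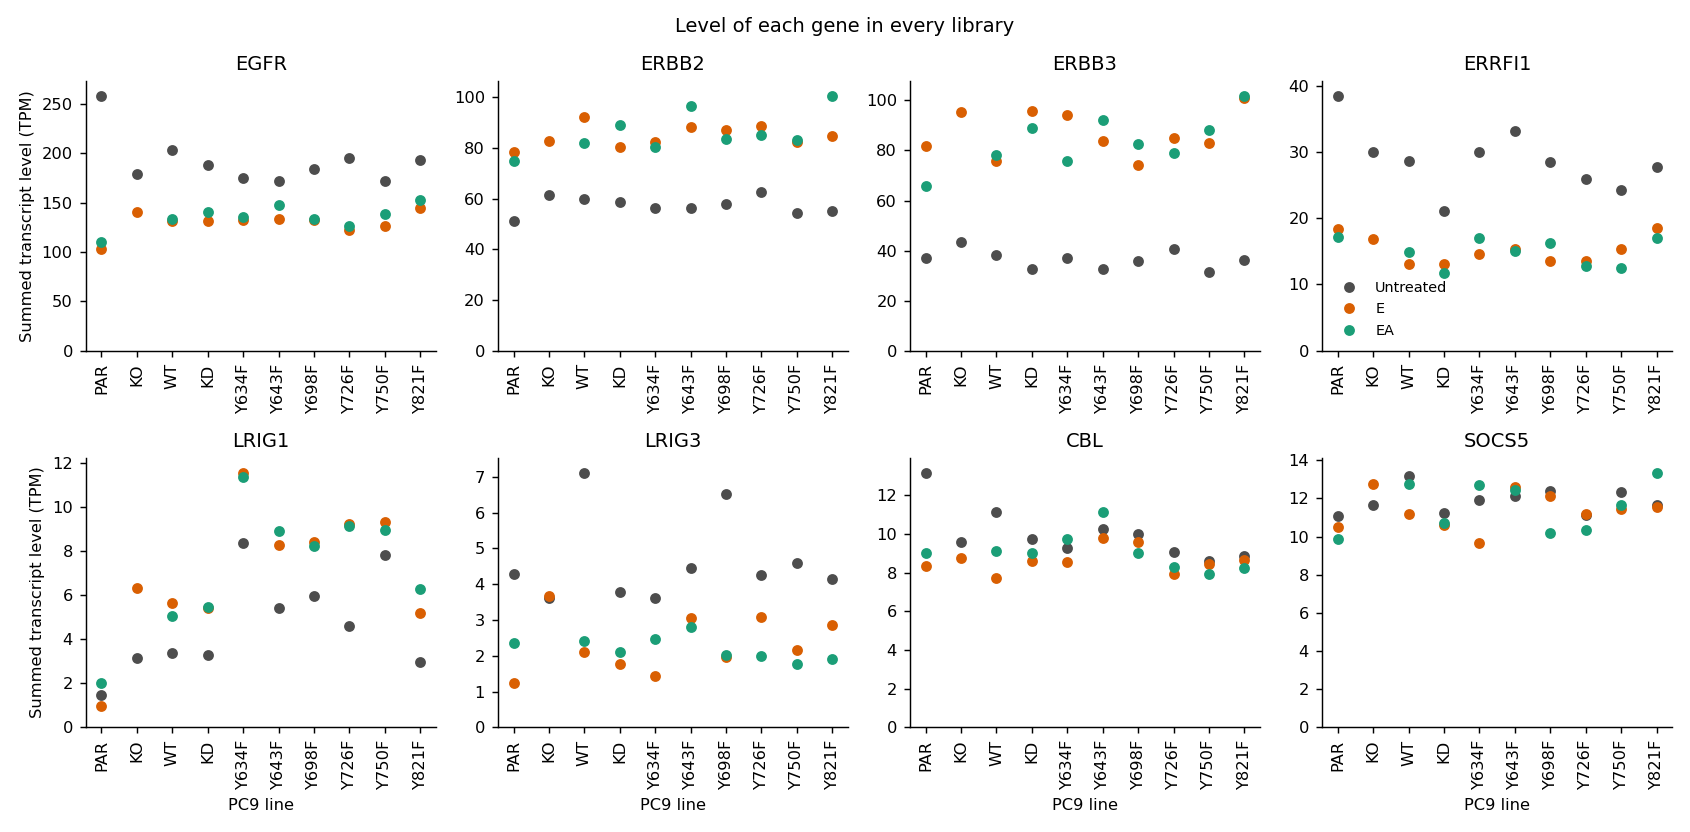
TPM (vertical axes, linear from 0, a different range in each panel) of each of the 8 genes in each PC9 line (horizontal axes), with 1 point per library, grey for untreated, orange for E and green for EA. ERBB3 lay between 31.5 and 43.3 TPM untreated and between 65.9 and 102 TPM with E or EA, while LRIG1 differed more between lines than between treatments.

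EGFR fell with E from the highest receptor level. Untreated it ranged from 171 TPM in Y750F over a median of 186 TPM to 258 TPM in PAR. With E it ranged from 103 TPM in PAR over a median of 132 TPM to 144 TPM in Y821F. PAR was thus the highest line untreated and the lowest with E, and the next highest untreated line, WT, was at 203 TPM. The log2 change was -0.56 (SE 0.08, adjusted p = 8.4e-06, limma), and 17.9% of genes fell at least as far. PAR fell by 1.31 on the log2 scale, and the other 9 lines fell by 0.35 in KO to 0.67 in Y726F. Without PAR the mean change was -0.47 (adjusted p = 3.5e-08), and the SD of the untreated level went from 25.4 to 11.2 TPM. 

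ERBB2 rose in step in every line. It ranged from 51.4 TPM in PAR over a median of 57.2 TPM to 62.7 TPM in Y726F untreated, and from 78.6 TPM in PAR over 83.9 TPM to 92.1 TPM in WT with E. PAR was the lowest line in each of the 3 treatments. The log2 change of 0.55 (SE 0.03, adjusted p = 6.1e-10, limma) varied from 0.42 in KO to 0.64 in Y643F, and 14.8% of genes rose at least as far.

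ERBB3 rose the most of the 8 genes, from 31.5 TPM in Y750F over a median of 36.6 TPM to 43.3 TPM in KO untreated, to between 74.3 TPM in Y698F and 101 TPM in Y821F with a median of 84.4 TPM with E. The log2 change was 1.23 (SE 0.06, adjusted p = 4.9e-11, limma), a geometric mean of 2.38-fold in TPM. The smallest rise was 1.98-fold in WT and the largest 2.95-fold in KD. Only 321 of 9085 genes, 3.53%, rose at least as far. In summed TPM ERBB3 thus passed ERBB2 or came near it: the ratio of ERBB3 to ERBB2 TPM was 0.554 to 0.724 untreated and 0.821 to 1.19 with E. These sums count all transcripts. Over all libraries, those annotated as protein coding held 73.5% of ERBB3 TPM, 87.2% of ERBB2 and 95.2% of EGFR. The main coding forms with E averaged 44.5 TPM for ERBB3 (ERBB3-201) and 50.7 TPM for ERBB2 (ERBB2-201).

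**Figure D2:**
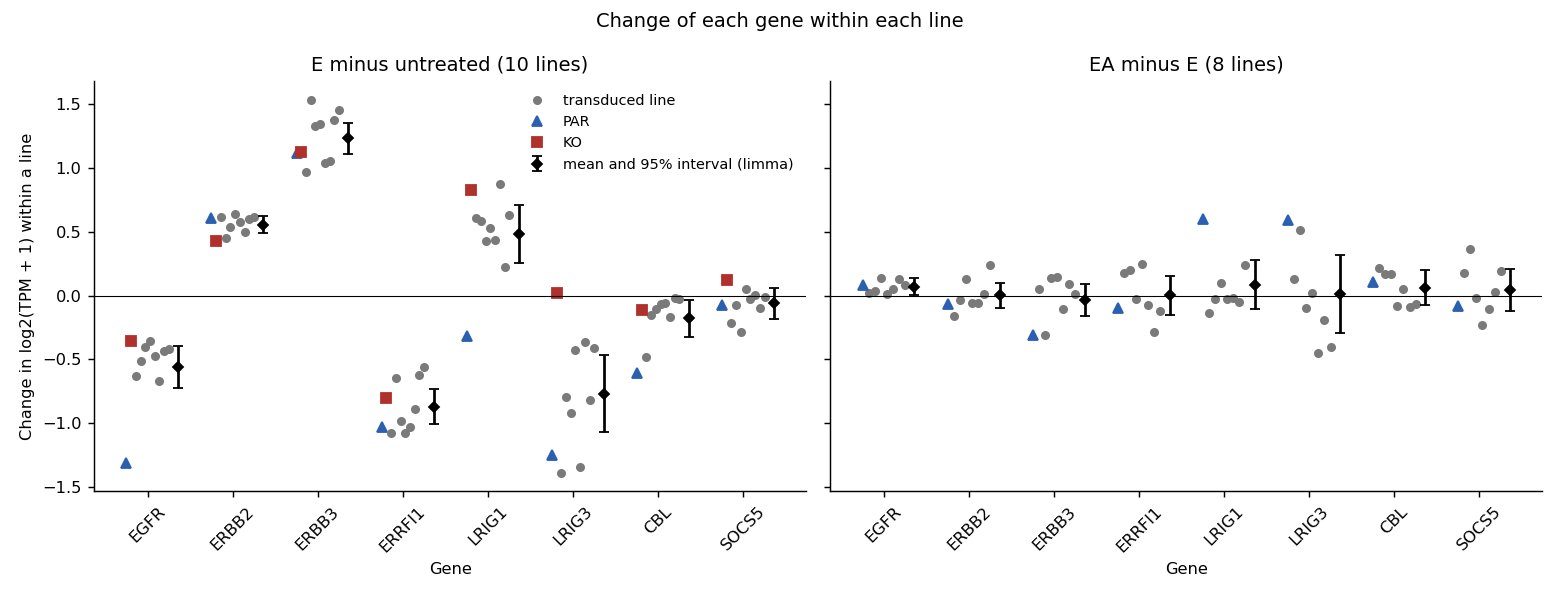
Change in log2(TPM + 1) within each line (vertical axis) for the 8 genes (horizontal axis), E minus untreated in 10 lines on the left and EA minus E in 8 lines on the right, with grey circles for transduced lines, a blue triangle for PAR, a red square for KO, and a black diamond with bars for limma's mean and 95% interval (fit on means of at least 1 TPM for LRIG1, LRIG3 and CBL). On the left ERBB3 lies highest, at 1.23, and on the right every mean lies between -0.04 and 0.08.

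The make-up of the receptor pool shifted in every line. EGFR held 67.0% ± 3.0 (SD, n = 10) of the summed TPM of EGFR, ERBB2 and ERBB3 untreated and 43.0% ± 1.6 (SD, n = 10) with E. ERBB3 held 12.8% ± 1.2 untreated and 28.8% ± 2.2 with E, and ERBB2 held 20.3% ± 2.0 and 28.2% ± 1.9. For all 3 shares the untreated and E lines did not overlap. The sum was 286 TPM ± 25.7 (SD, n = 10) untreated and 301 TPM ± 17.7 with E. Within lines it was higher with E in 7 of 10 and lower in PAR, WT and Y726F, most in PAR, at 346 TPM untreated and 264 TPM with E. With EA the shares were 44.3% ± 1.0 for EGFR, 28.3% ± 0.9 for ERBB2 and 27.4% ± 0.9 for ERBB3 (SD, n = 9). These shares count all transcripts of a gene, coding or not, and were not tested beyond the 3 genes that make them.

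**Figure D3:**
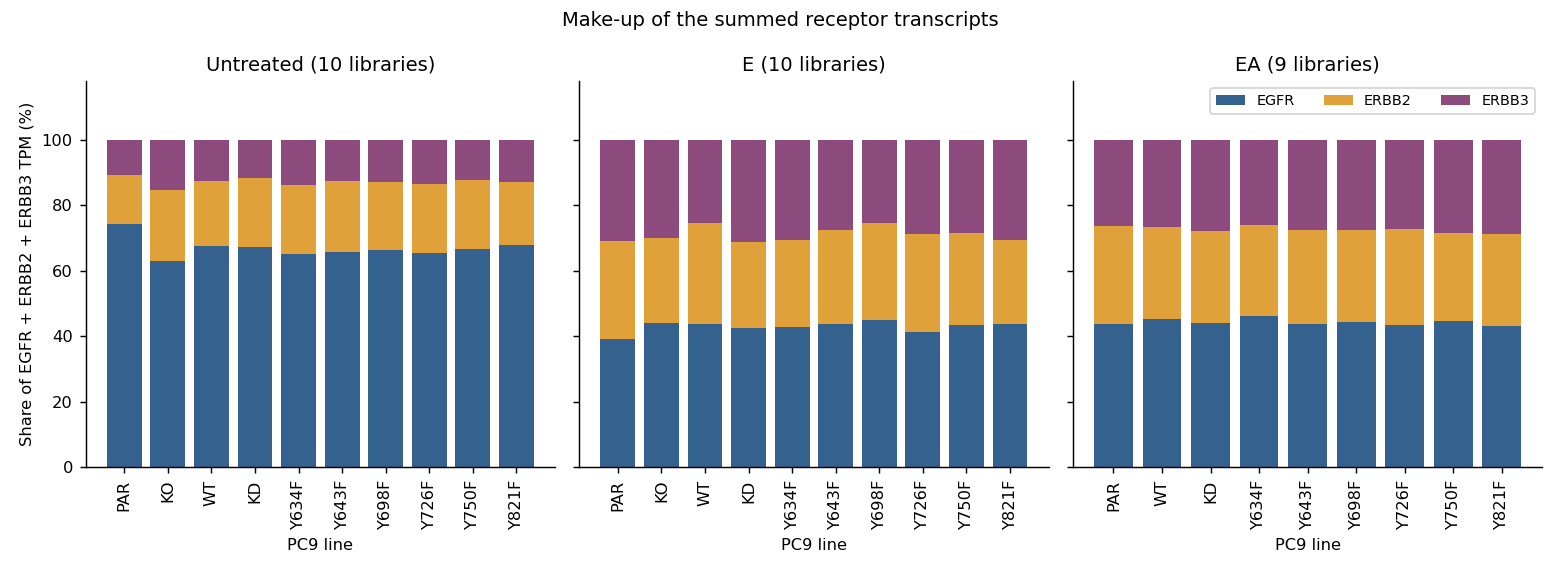
Share (%, vertical axis, from 0) of EGFR (blue), ERBB2 (yellow) and ERBB3 (purple) in their summed TPM, 1 bar per library, with lines along the horizontal axis and 1 panel per treatment. EGFR holds 63.1% to 74.4% of the sum untreated and 39.2% to 45% with E, and ERBB3 holds 10.7% to 15.2% and 25.3% to 31.2%.

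Of the inhibitors, ERRFI1 fell in 10 of 10 lines. It ranged from 21.1 TPM in KD over a median of 28.6 TPM to 38.4 TPM in PAR untreated, and from 13.1 TPM in WT over 15 TPM to 18.6 TPM in Y821F with E. PAR stayed near the top with 18.3 TPM. The log2 change was -0.87 (SE 0.06, adjusted p = 8e-09, limma), with falls of 0.56 in Y821F to 1.08 in WT, and 9.06% of genes fell at least as far. The ratio of EGFR to ERRFI1 TPM was 6.77 ± 1.0 (SD, n = 10) untreated and 8.66 ± 1.3 with E, with ranges of 5.16 to 8.91 and 5.63 to 10.01. Within lines it was higher with E in 9 of 10, and lower in PAR, at 6.71 untreated and 5.63 with E. The ratio was not tested.

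LRIG3 was lower in 9 of 10 lines. It ranged from 3.60 TPM in Y634F over a median of 4.27 TPM to 7.11 TPM in WT untreated, and from 1.23 TPM in PAR over 2.14 TPM to 3.68 TPM in KO with E. KO was the exception, at 3.61 TPM untreated and 3.68 TPM with E, so that the groups overlapped by that line. This exception holds for the summed gene only. The main coding form, LRIG3-201, was higher with E in 0 of 10 lines, and held 48.0% of LRIG3 TPM in KO with E. The log2 change was -0.77 (SE 0.14, adjusted p = 0.000225, limma, means of at least 1 TPM). The geometric mean ratio of E to untreated TPM was 0.490 for LRIG3 and 0.531 for ERRFI1, so the order of these 2 falls differs between TPM and log2(TPM + 1). The depth behind such low values is not known.

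LRIG1 rose in 9 of 10 lines and differed most between lines. Untreated it ranged from 1.46 TPM in PAR over a median of 3.99 TPM to 8.35 TPM in Y634F, and with E from 0.973 TPM in PAR over 7.29 TPM to 11.5 TPM in Y634F. PAR, the only line with its own AXL and no knockout, was lowest and Y634F highest in all 3 treatments, and PAR was the only line in which summed LRIG1 went down. The coding form LRIG1-201 did not go down in PAR, at 0.302 TPM untreated and 0.564 TPM with E. It held 20.7% and 58.0% of LRIG1 there, so the fall lay in other transcripts, at very low levels. KO, which carries no AXL transgene, was at 3.13 TPM untreated and 6.32 TPM with E, within the range of the transduced lines. The log2 change was 0.48 (SE 0.10, adjusted p = 0.000967, limma, means of at least 1 TPM) and 0.57 without PAR (adjusted p = 2.1e-05). Without the line block the same mean gave an adjusted p of 0.127, over lines whose LRIG1 levels spread by 48.1% (CV, n = 10) untreated.

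CBL fell little and SOCS5 did not pass the test. CBL ranged from 8.60 TPM in Y750F over a median of 9.65 TPM to 13.2 TPM in PAR untreated and from 7.71 TPM in WT over 8.58 TPM to 9.77 TPM in Y643F with E. It was lower in 10 of 10 lines, by 0.60 in PAR, 0.48 in WT and at most 0.17 in the other 8, with a mean log2 change of -0.18 (SE 0.07, adjusted p = 0.0309, limma, means of at least 1 TPM). The adjusted p was 0.0596 without PAR, at a change of -0.13, and 0.0731 without WT, at -0.15, so the call was lost without either line. SOCS5 lay between 11.1 and 13.2 TPM untreated and between 9.64 and 12.8 TPM with E, with medians of 11.8 and 11.3 TPM. Its log2 change was -0.06 (95% interval -0.18 to 0.06, adjusted p = 0.335, limma).

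How much of the variation came from treatment or line differed among the genes. Over the 9 lines with all 3 treatments, treatment held 94.2% of the sum of squares of log2(TPM + 1) for ERBB3, 89.5% for ERBB2, 81.8% for ERRFI1, 76.6% for EGFR and 72.7% for LRIG3. For LRIG1 treatment held 11.4% and the line 83.9%, for CBL 25.9% and 36.5%, and for SOCS5 8.4% and 45.2%. The medians over genes averaging 10 TPM or more were 52.6% for treatment and 21.8% for line. Over genes averaging 1 TPM or more, the set that holds LRIG1, LRIG3 and CBL, they were 42.9% and 23.3%. The order of the lines in LRIG1 stayed close between treatments, with r = 0.90 between untreated and E over 10 lines, 0.92 without PAR, and 0.98 between E and EA over 9 lines. Beside it, r between untreated and E was 0.11 for ERBB3 without PAR and -0.02 for EGFR without PAR (9 lines each). With PAR these were 0.09 and -0.77 over 10 lines. Between E and EA, r was 0.94 for EGFR over 9 lines and 0.82 without PAR, near that of LRIG1. For ERBB3 it was 0.45 and 0.47. These r values describe lines that share their origin and carry no test.

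**Figure D4:**
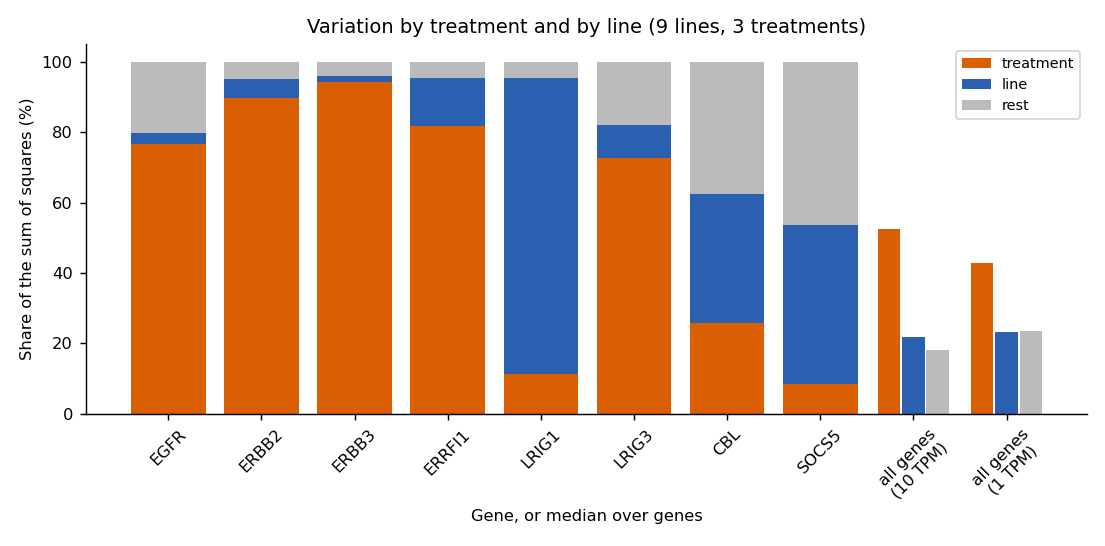
Share (%, vertical axis) of the sum of squares of log2(TPM + 1) held by treatment (orange), line (blue) and the rest (grey) over 9 lines and 3 treatments, stacked for each of the 8 genes, and as 3 separate bars for the median of each share over all genes averaging 10 TPM or more, or 1 TPM or more. Treatment holds 94.2% for ERBB3 and the line 83.9% for LRIG1. The medians for treatment and line are 52.6% and 21.8% at 10 TPM or more, and 42.9% and 23.3% at 1 TPM or more.

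Adding AF154 to E was the comparison that asked what AXL activation does in cells with a blocked EGFR, and none of the 8 genes passed the test between EA and E in the 8 lines that were neither KD nor KO. At an unadjusted p under 0.05, EGFR was the only one of the 8. Of 9085 genes 2.36% passed, which is 214 genes, with 1895 at an unadjusted p under 0.05. The count of 214 became 10 without Y634F, 18 without Y643F, 55 without PAR or without Y698F, 76 without Y750F, 94 without Y821F, 131 without WT, 188 without Y726F and 9 without the line block. The share was 0.475% of the 14111 genes averaging 1 TPM or more. Summed EGFR was higher in 8 of 8 lines, by 0.07 on the log2 scale (95% interval 0.0024 to 0.14, p = 0.0434, adjusted p = 0.225, limma), from 0.01 in Y698F to 0.14 in Y643F. With EA it ranged from 110 TPM in PAR over a median of 135 TPM to 153 TPM in Y821F, within the range of E but for the top. In KD, which was not in the fit, EGFR was 0.10 higher with EA. The main coding form, EGFR-201, was higher in only 4 of 8 lines, by 0.04 (adjusted p = 0.742, limma). The shorter EGFR-211 was higher in 6 of 8, by 0.41 (p = 0.0466, adjusted p = 0.490, limma).

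For the other genes the 95% intervals of EA minus E bound the mean difference over whole lines. All of these lines but PAR mix cells with and without AXL. A change confined to the cells with AXL could thus be larger, which was not tested. The 95% intervals were -0.16 to 0.09 for ERBB3, -0.10 to 0.10 for ERBB2, -0.15 to 0.15 for ERRFI1 and -0.12 to 0.21 for SOCS5. ERBB3 was lower by 0.31 in both PAR and Y634F and rose by at most 0.15, in Y698F, so the lines went both ways. The intervals were wider for the low genes, -0.29 to 0.32 for LRIG3 and -0.11 to 0.28 for LRIG1, and -0.08 to 0.20 for CBL. PAR had the largest rise of the 8 lines in summed LRIG1, from 0.973 to 1.99 TPM, and in LRIG3, from 1.23 to 2.36 TPM. The coding form LRIG1-201 did not share this rise. In PAR it made up 58.0% of LRIG1 under E (0.564 TPM), but only 12.3% under EA (0.245 TPM). LRIG1-205 and LRIG1-208, annotated as processed transcripts, made up 37.1% and 36.9% of it in PAR under EA. All these levels are very low. Without PAR the LRIG1 difference went from 0.08 to 0.011.

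Against untreated, EA showed the same 4 calls as E in the genes over the filter, where 73.5% of genes passed. The log2 changes over 9 lines were 1.20 for ERBB3 (SE 0.08), 0.59 for ERBB2 (SE 0.05), -0.89 for ERRFI1 (SE 0.06) and -0.51 for EGFR (SE 0.08), with adjusted p of 1.2e-08, 1.8e-07, 1.6e-08 and 0.000109 (limma). SOCS5 stayed at -0.04 (adjusted p = 0.566, limma). Among means of at least 1 TPM, where 66.1% passed, summed LRIG3 fell by 0.82 in 9 of 9 lines and summed LRIG1 rose by 0.52 in 9 of 9, with adjusted p of 3.3e-05 and 0.000221 (limma), while CBL was at -0.13 (adjusted p = 0.131). The coding form LRIG1-201 was higher in 8 of 9 lines, by 0.35 (adjusted p = 0.0444, limma, and 0.0703 with a pseudocount of 0.1). LRIG3-201 was at -0.75 (adjusted p = 0.00648, limma) and was higher in 1 of 9 lines. These values share the untreated libraries with those of E and are not independent of them. ERBB3 ranged from 65.9 TPM in PAR over 82.4 TPM to 102 TPM in Y821F with EA, and ERRFI1 from 11.7 TPM in KD over 15 TPM to 17.1 TPM in PAR.

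At the level of transcripts, the main protein-coding form was called in the direction of its gene for each gene but SOCS5, which passed at neither level. How overlapping transcripts share reads is estimated, so these are the authors' assignments. Of the 40 transcripts of these genes that averaged 1 TPM or more, 12 were higher and 8 lower with E, where 44.7% of 47921 transcripts passed. ERBB3-201, a coding form of 5919 bases, rose from 15.6 TPM ± 1.8 to 44.5 TPM ± 4.2 (SD, n = 10 each) with a log2 change of 1.45 (adjusted p = 3.7e-09, limma), and its share of ERBB3 TPM was 43.2% ± 6.2 untreated and 51.4% ± 3.5 with E. ERBB3-203 rose by 1.28 (adjusted p = 7.3e-06). ERBB2-201 held 58.2% ± 3.2 and 59.9% ± 4.2 of its gene and rose by 0.59 (adjusted p = 1.9e-07), and ERBB2-218 rose by 0.57 (adjusted p = 0.00265).

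EGFR-201 fell by 0.47 (adjusted p = 0.000203, limma), from 144 TPM ± 15.5 to 103 TPM ± 8.2 (SD, n = 10 each). EGFR-211, a shorter coding form, fell by 0.98 (adjusted p = 6.4e-06), and its share of EGFR was 14.6% ± 2.9 untreated, 10.6% ± 2.7 with E and 13.3% ± 3.5 with EA. ERRFI1-201 fell by 0.92 (adjusted p = 1.9e-08), LRIG3-201 by 0.75 (adjusted p = 0.000223) and CBL-201 by 0.23 (adjusted p = 0.0298). SOCS5-201 and SOCS5-202 did not pass. CBL-205 was under the filter and was not tested, with means of 0.767 TPM untreated, 1.02 TPM with E and 1.03 TPM with EA. For LRIG1 only 38.0% of the TPM over all libraries fell on transcripts annotated as protein coding. LRIG1-201, its coding form, rose by 0.43 (adjusted p = 0.00455) and the non-coding LRIG1-208 by 0.63 (adjusted p = 0.0191, and 0.0581 with a pseudocount of 0.1 in place of 1), while LRIG1-205 and LRIG1-207, also annotated as processed transcripts, did not pass. Between EA and E 0 of 40 passed and 2 had an unadjusted p under 0.05 (limma), where 0% of 47921 passed and 4845 had an unadjusted p under 0.05. Between EA and untreated 10 of 40 were higher and 7 lower, where 36.3% passed.

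The rest of the pathway moved in groups of unequal direction with E. The counts stand beside 79% of all genes called, 36.4% higher and 42.6% lower. Among feedback genes that ERK drives, 6 of 15 passed the filter on low values and all 6 fell, with a median log2 change of -3.12 against -0.04 over all genes. The filter took the mean over all libraries, so a gene that falls this far can pass it through its untreated level. How far this shaped the direction and the median was not tested. FOSL1, an AP-1 factor, fell by 3.58, ETV4, an ETS factor, by 3.49 and PHLDA1 by 3.24, each in 10 of 10 lines. Of 16 genes known as FOXO targets 11 were tested, 10 rose and 1, KLF6, fell by 0.41, with a median of 1.10, and the largest rises were in CITED2 (2.41), CCNG2 (1.87) and TXNIP (1.75). All 6 chaperones of ERBB receptors fell, with a median of -0.60, led by HSP90AA1 at -1.09, AHSA1 at -0.85 and PTGES3 at -0.62.

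Among ligands only TGFA, which binds EGFR, passed the filter, and it fell by 0.48 (adjusted p = 1.4e-07, limma). The summed TPM of 11 ligands was 91.8 to 133 TPM untreated, 52.6 to 70.9 TPM with E and 51.8 to 75.8 TPM with EA. Of 22 adaptors and proximal effectors tested, 12 rose and 8 fell with a median of 0.25, beside 36.4% of all genes higher and 42.6% lower, with the largest rises in GAB2 (1.25), a scaffold that recruits PI3K, GRB7 (0.95) and STAT3 (0.90). Of 27 other degradation and sorting genes 13 rose and 11 fell with a median of 0.02, and the share that fell is near the 42.6% of all genes. CBLB, a ubiquitin ligase related to CBL, rose by 1.90 (adjusted p = 2.4e-11, limma) in 10 of 10 lines, beside NEDD4 at 1.44 and ANKRD13A at 1.27. Of 13 genes tested from the list of other LRIG, SOCS and receptor-level inhibitors 4 rose and 5 fell, beside 36.4% of all genes higher and 42.6% lower. The largest changes were all rises, LRRN1 at 2.86, CDH1 at 0.67 and PTPRK at 0.56. Whether each listed gene restrains ERBB receptors in these cells was not tested. Among the markers of epithelial cells 4 of 7 rose and 3 fell, with MUC1 at 1.79, KRT7 at 0.88, CDH1 at 0.67, KRT18 at -0.64, EPCAM at -0.44 and KRT8 at -0.31. Of the 2 tested markers of other cells COL1A1 rose by 1.03 and CD68 fell by 0.69. These lists were put together with earlier results known and give no independent evidence of a direction.

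**Figure D5:**
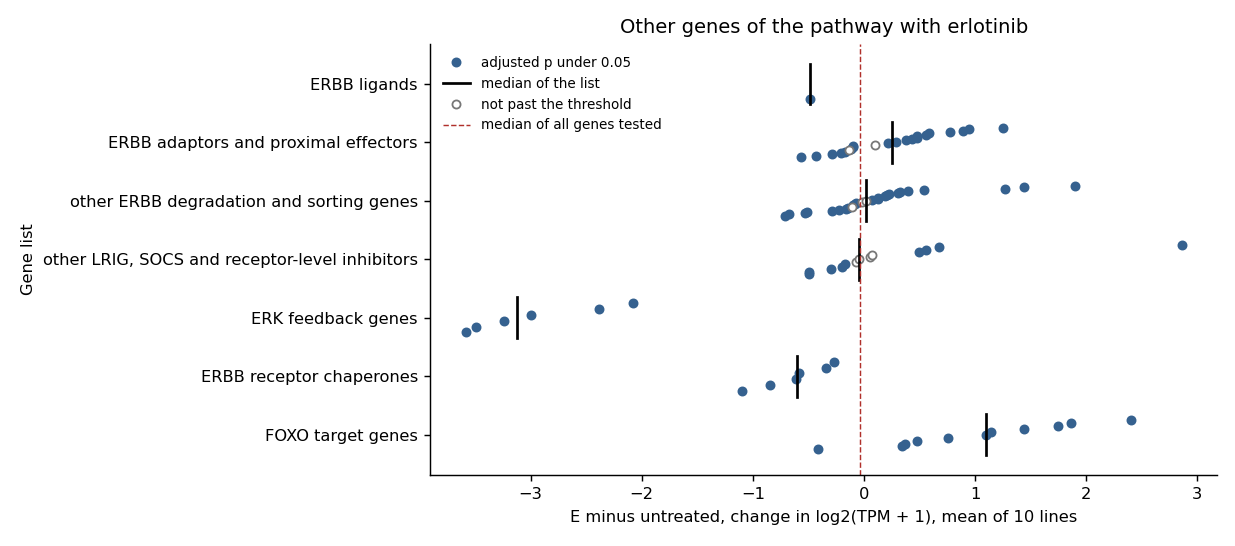
Mean change in log2(TPM + 1) of E minus untreated over 10 lines (horizontal axis) for genes of 7 lists (vertical axis), filled for an adjusted p under 0.05 and open otherwise, with a black bar for the median of the list and a dashed red line for the median of all genes tested. The 6 ERK feedback genes lie left of all others, around a median of -3.12, and 10 of 11 FOXO targets lie right of 0.

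Between EA and E, no gene of these lists passed but 2 of 6 chaperones. HSP90AA1 was higher by 0.20 (adjusted p = 0.0367, limma) and HSP90B1 by 0.15 (adjusted p = 0.0449), each in 8 of 8 lines. When each line was left out in turn, each of the 2 passed in 1 of 8 fits, with an adjusted p of up to 0.101 and 0.118. Between EA and untreated the same lists gave 6 of 6 ERK feedback genes lower (ETV4 at -3.41, FOSL1 at -3.32 and ETV5 at -3.07), 6 of 6 chaperones lower, and 9 of 11 FOXO targets higher and 1 lower, where 73.5% of all genes passed.

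Over the 29 libraries, ERBB3 was most like CYBRD1, PDLIM1 and CD55 (Pearson r of log2(TPM + 1), 0.98 each), and ERBB2 most like NFE2L2 (0.97), CCNDBP1 (0.97) and TMEM127 (0.97). EGFR went with CDCA7L, DHX33 and RIF1 (0.94, 0.93 and 0.93), and ERRFI1 with TUBGCP3, OSBPL3 and NT5E (0.94, 0.93 and 0.93). For LRIG3 the nearest were ALDH18A1, IER3IP1 and XPO5 (0.92, 0.90 and 0.90). For these 5 the libraries shared the split by treatment, and within treatments the same r fell to between 0.50, for ERRFI1 and NT5E, and 0.77, for LRIG3 and ALDH18A1. For LRIG1 the nearest were SPARC, ACADVL and MPHOSPH8 (0.87, 0.86 and 0.86, and 0.84, 0.86 and 0.84 within treatments), for CBL they were LONP2, ERO1A and SMG1 (0.82, 0.81 and 0.81), and for SOCS5 ATP6V1B2, EIF2A and COPS2 (0.78, 0.76 and 0.73). Among the 8 genes, ERBB2 and ERBB3 were most alike (0.95, and 0.47 within treatments), and ERBB2 and ERRFI1 most opposed (-0.90, and -0.29 within treatments).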

How the data were processed

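RNA of 29 libraries of PC9 lines was used, grouped by the labels. The authors deposited TPM per transcript, and the study's methods give reads sequenced and aligned by a service company and a removal of genes under 10 TPM before analysis. The table used here still holds such genes. The submitters' processing notes list kallisto and GRCh38, and versions, index and strand handling were not given in the sources used here. TPM has a fixed total, so depth is unknown and no counting interval is given. Of 188753 transcripts, 169797 found their gene in GENCODE release 29, with identifier versions ignored, and were summed to 35579 genes. They held 97.0% to 97.4% of the TPM of a library. The 18956 others were not used.

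The 9085 genes averaging 10 TPM or more across libraries were fitted as log2(TPM + 1) with limma 3.58.1 in R 4.3.3 (lmFit, eBayes with trend), Benjamini-Hochberg adjustment and a threshold of 0.05. LRIG1, LRIG3 and CBL were under this filter, so their values come from the fit on means of at least 1 TPM (14111 genes). Libraries of a line are the same cells, so the line was the block. E was compared with untreated in 10 lines, EA with E in the 8 lines that were neither KD nor KO, and EA with untreated in 9. Transcripts with a mean of at least 1 TPM were fitted likewise.

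The 8 genes and all lists were chosen with earlier results of these data known. Named genes were the 8, AXL, ERBB4, transcripts holding at least 10% of their gene's TPM, up to 3 genes per list and comparison with the largest change past the threshold, and the 3 genes over the filter most correlated with each of the 8. KLF6, KRT18, EPCAM and KRT8 were given values for E after these were seen, as the members of their lists that fell. Alternatives were another pseudocount, filters, scalings, no block, array weights, coding transcripts only, mitochondrial genes left out (11.4% to 17.4% of TPM), other sets of lines, and each line left out. For LRIG1, LRIG3 and CBL they were added after seeing the data. For EA against E, simulated data of 9085 genes held 200 with a log2 change of 0.5. Of these limma called 183, and it also called 15 of the unchanged genes. Whether differences as small as the means of the 8 genes, -0.04 to 0.08, would be called was not tested. Tables and figures were made with pandas 2.3.3, numpy 2.4.6 and matplotlib 3.10.9 in Python 3.11.15.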

Additional observations from a re-analysis of the deposited data

Results flagged for a closer look

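PAR stood apart from the other lines in EGFR, by the distance of the highest or lowest line from the rest of its group. Untreated PAR had 258 TPM, against 171 to 203 TPM in the other 9 lines. With E it had 103 TPM, against 122 to 144 TPM. Its log2 change with E was -1.31, against -0.67 to -0.35, and with EA against untreated -1.23, against -0.62 to -0.22 in the other 8. These 4 of 48 groups of values of the 8 genes were marked, all by PAR, where chance marks about 1 in 20 groups, and the 4 share libraries. Summed LRIG1 went the other way in PAR with E, at -0.32 on the log2 scale, against 0.23 to 0.87 in each of the other 9 lines. That difference was not tested, since PAR is 1 line. The coding form LRIG1-201 rose in PAR, from 0.302 TPM untreated to 0.564 TPM with E.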

How the results depend on the processing

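Between E and untreated, the calls and directions of EGFR, ERBB2, ERBB3, ERRFI1 and LRIG3 held under every alternative run (19 to 21 each), with log2 changes of -0.59 to -0.47, 0.54 to 0.64, 1.20 to 1.37, -0.91 to -0.82 and -0.99 to -0.70, and SOCS5 passed under none. LRIG1 lost its call without the replicate block (0.48, adjusted p = 0.127; EA against untreated 0.52, 0.0905, limma), and leaving out the block changed no other call of the 8 genes. CBL was -0.19 (adjusted p = 0.0651) in the 8 lines that were neither KD nor KO, and -0.20 to -0.13 with each line left out, and between EA and untreated it passed with quantile normalization (-0.15, adjusted p = 0.0379). Between EA and E, 214 genes passed, but 67 with means of at least 1 TPM, 6 with no filter, 9 without the block, 361 with coding transcripts only, 120 with the KD pair, and 10 (without Y634F) to 188 (without Y726F) with each line left out, with 18 without Y643F, 55 without PAR or without Y698F, 76 without Y750F, 94 without Y821F and 131 without WT. Values near 0 changed sign: ERBB2 to -0.016 with centred medians, -0.0050 with quantile normalization, -0.0076 with array weights and -0.067 with coding transcripts; ERRFI1 to -0.014, -0.015 and, with the KD pair, -0.015; LRIG3 to -0.0089 with centred medians; LRIG1 to -0.054 with coding transcripts. Leaving out lines gave -0.034 to 0.023 for ERBB2, -0.061 to 0.0033 for ERBB3, -0.033 to 0.043 for ERRFI1, -0.0049 to 0.080 for SOCS5 and -0.069 to 0.081 for LRIG3. None of the 8 genes passed between EA and E in any alternative run. With means of at least 5 TPM, 9 transcripts passed with E and 8 with EA against untreated, fewer being tested, and SOCS5-201 was -0.10 with a pseudocount of 0.1. The cause of these shifts was not tested otherwise.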
